A study of Homo sapiens with 12 samples.

Results

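The genes examined here, all of 1 pathway, are GFPT1, GFPT2, GNPNAT1, PGM3, UAP1, GNE, NANS, NANP, CMAS and GNPDA1. They are 10 of the 58721 genes in the deposited tables, and all 10 passed the filter on low counts in both cell lines. The set was chosen by measured values of these data, namely a rise of GNE in Pa-Tu-8902 and a fall of GNPDA1 in MIA PaCa-2, so both of those changes are given as descriptions without a test. The 2 lines derive from human pancreatic cancer. The study asked what happens in pancreatic cancer cells when they lose GOT1, the cytosolic aspartate aminotransaminase. Both lines carried iDox-shGOT1, a hairpin RNA that silences GOT1 once doxycycline (dox) is added, and were grown in DMEM with fetal bovine serum. RNA-seq was performed in triplicate on each line without dox and after 5 days of dox, which gave 4 groups of 3 libraries. The labels give the dox concentration as 1 µM/mL, while the study's methods state it in µg/mL.

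All 12 libraries came from cells that had been transduced with the hairpin vector and kept as stable lines after selection, and which of the study's hairpins they carried was not given in the sources used here. A line with a control hairpin was not analysed here, so the effect of dox and the effect of GOT1 loss cannot be told apart. The labels do not say whether replicates were separate cultures, so p-values measure the spread between these libraries, which may be technical.

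The hexosamine pathway takes a sugar phosphate out of glycolysis, adds the amino group of glutamine and an acetyl group, and ends in UDP-N-acetylglucosamine, the donor for N-glycans, hyaluronan and O-GlcNAc on intracellular proteins. A side branch turns UDP-N-acetylglucosamine into sialic acid, which is activated with CMP and then placed at the outer ends of glycans on the cell surface. Pancreatic cancers are known for heavily glycosylated and sialylated mucins.

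The genomic stretches in front of GNE and GNPDA1 are shown first, since these 2 genes had the largest changes with dox among the members. GNE lies on the minus strand at chr9:36214441-36277042 and GNPDA1 on the minus strand at chr5:141991749-142013041 (GRCh38, GENCODE release 44). GNE has 2 RefSeq starts, one at position 36276978 and one 18530 bases further along the gene at position 36258448. Sequences are RefSeq promoter windows on GRCh38.p14, written 5′ to 3′ on the strand of the gene in lower case. Bases that an annotated exon covers were left out, which removed 64 bases from the window of the upstream GNE start and 14 bases from the window of GNPDA1. Capitals mark an AP-1 site (TGAGTCA) and an E-box (CACGTG).
GNE, upstream start, chr9:36277043-36277228: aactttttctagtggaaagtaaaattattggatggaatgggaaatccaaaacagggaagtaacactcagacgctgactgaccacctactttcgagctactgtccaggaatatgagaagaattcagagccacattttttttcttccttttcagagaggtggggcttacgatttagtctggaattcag
GNE, downstream start, chr9:36258449-36258698: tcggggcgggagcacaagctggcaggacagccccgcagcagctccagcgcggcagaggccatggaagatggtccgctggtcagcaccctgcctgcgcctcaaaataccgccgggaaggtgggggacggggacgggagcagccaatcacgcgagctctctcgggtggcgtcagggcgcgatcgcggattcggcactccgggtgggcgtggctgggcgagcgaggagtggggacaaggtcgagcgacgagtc
GNPDA1, chr5:142013042-142013277: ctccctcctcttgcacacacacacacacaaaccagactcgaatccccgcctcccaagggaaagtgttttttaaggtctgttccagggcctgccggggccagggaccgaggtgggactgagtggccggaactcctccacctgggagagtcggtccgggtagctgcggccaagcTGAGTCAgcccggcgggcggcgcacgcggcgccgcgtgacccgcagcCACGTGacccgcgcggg
Over the full windows of 250 bases, GC content was 42% before the upstream GNE start, 70% before the downstream GNE start and 69.6% before GNPDA1, against a median of 58% over 35114 windows. The AP-1 site of GNPDA1 lay 78 to 72 bases before its start and the E-box 31 to 26 bases before it. On both strands, the AP-1 site was found in 4.2% of all windows and the E-box in 6.35%. An ATF4 element (TGATGNAA, in 3.14% of all windows) and an unfolded protein response element (TGACGTG, in 1.68%) were also searched. The latter was in the window of NANS, 41 to 35 bases before the start, and in a window of UAP1, 174 to 168 bases before the start. Neither GNE window held any of the 4 motifs, which says only that these letters are not there. A match of letters is a description and not a binding site.

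Libraries held 26226537 to 43406137 counts. GOT1 was at 78.26 to 83.38 TPM (a transcript level corrected for length and depth) in untreated Pa-Tu-8902 and at 3.29 to 4.51 TPM with dox, a log2 fold change of -4.64 (SE 0.09). In MIA PaCa-2, GOT1 was at 38.9 to 44.08 TPM without dox and 1.68 to 1.95 TPM with dox, a log2 fold change of -4.76 (SE 0.11). MIA PaCa-2 is known as a line with much vimentin and little E-cadherin. VIM was at 3531.49 to 4217.94 TPM and CDH1 at 0.0 to 0.22 TPM in the 6 libraries of that name, and VIM was at 2.54 to 10.46 TPM and CDH1 at 60.01 to 139.0 TPM in the 6 Pa-Tu-8902 libraries. Of the other mesenchymal markers, ZEB1 was at 7.71 to 12.37 TPM in MIA PaCa-2 and 0.63 to 0.88 TPM in Pa-Tu-8902. CDH2 and FN1 were low and went the other way. CDH2 was at or below 0.01 TPM in MIA PaCa-2 and at 0.56 to 1.16 TPM in Pa-Tu-8902. FN1 was at 0.03 to 0.16 and 0.36 to 1.02 TPM. EPCAM and KRT7, which mark epithelium, were at or below 0.36 and 1.26 TPM in MIA PaCa-2, while KRT8 and KRT18 were high in both lines. KRT19, another keratin of duct epithelium, was at 384.49 to 413.44 TPM in untreated and 127.68 to 132.1 TPM in dox-treated MIA PaCa-2, and CDH1 at 60.01 to 70.15 and 124.31 to 139.0 TPM in untreated and dox-treated Pa-Tu-8902. Of the 3 fibroblast markers, DCN stayed at or below 0.09 TPM in every library. COL1A2 was at 192.18 to 248.0 TPM in untreated and 340.09 to 397.71 TPM in dox-treated MIA PaCa-2, and COL1A1 at 3.43 to 6.31 and 17.51 to 21.18 TPM in Pa-Tu-8902. Markers of acinar and endothelial cells summed to at most 0.34 TPM in any library. Leukocyte markers summed to 3.42 to 4.06 TPM in untreated and 1.56 to 1.86 TPM in dox-treated MIA PaCa-2, and to at most 1.03 TPM in Pa-Tu-8902. The part of these markers in the results below was not tested. The second untreated MIA PaCa-2 library stood apart from its group by its summed FPKM, 860017 against 775159 to 808569 in the other MIA PaCa-2 libraries. Some results, such as the changes of GNE and SLC35D1 in that line, are also given without it.

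In untreated cells, several members differed in level between the 2 lines, as did 58.1% of all genes tested. Pa-Tu-8902 had more NANS and CMAS, which act after GNE in the sialic acid branch, and more GFPT1, and MIA PaCa-2 had more UAP1, GNE and GFPT2. Ranked by mean TPM, NANS (213 TPM) and CMAS (174 TPM) led in untreated Pa-Tu-8902, followed by UAP1 at 67.7, GNPDA1 at 57, GNPNAT1 at 37.4, PGM3 at 33.4, GFPT1 at 17.3, GNE at 16.5, NANP at 3.89 and GFPT2 at 2.33 TPM. Of the neighbours in that order, only GFPT1 and GNE overlapped between libraries. In untreated MIA PaCa-2 the order was UAP1 (202 TPM), NANS (85.9), GNE (72.2), CMAS (61.8), GNPDA1 (58.5), GNPNAT1 (45), PGM3 (18.9), GFPT2 (7.41), GFPT1 (6.39) and NANP (5.2). There, GNE overlapped with CMAS, CMAS with GNPDA1, GFPT2 with GFPT1, and GFPT1 with NANP.

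Tests were made with edgeR on counts over all genes, and a gene was called where its Benjamini-Hochberg adjusted p was below 0.01 and its fold change at least 1.5. GNE and GNPDA1 were left out of the counts of called members wherever their values had served to choose the set. Between the untreated lines, 5 of the other 8 genes were called, beside 58.1% of the 15608 genes tested. The share is near that of all genes, so nothing particular to the pathway is read from it. CMAS, GFPT1 and NANS were higher in Pa-Tu-8902, a direction called for 28.9% of all genes. GFPT2 and UAP1 were lower, a direction called for 29.3%. The log2 difference between Pa-Tu-8902 and MIA PaCa-2 was 1.46 (SE 0.07, adjusted p = 2.48e-10) for CMAS, 1.37 (SE 0.07, adjusted p = 3.83e-10) for GFPT1 and 1.26 (SE 0.09, adjusted p = 2.16e-08) for NANS. It was -2.55 (SE 0.13, adjusted p = 4.80e-10) for GFPT2 and -1.60 (SE 0.07, adjusted p = 1.29e-10) for UAP1. GNE differed by -2.22 (SE 0.08) and GNPDA1 by -0.11 (SE 0.07), and these 2 values have no test because they share the untreated libraries that chose the genes. With 1 library left out, the difference of GNE ranged from -2.34 to -2.09. PGM3 (0.53, SE 0.07), NANP (-0.46, SE 0.12) and GNPNAT1 (-0.31, SE 0.07) differed by less than 1.5-fold. Without the first or without the second untreated Pa-Tu-8902 library, the difference of PGM3 was 0.63 and it was called, as it was with effective lengths as offsets (0.75) and with limma on log2(TPM + 1) and log2(TPM + 0.1) (0.79 and 0.82). In normalized counts the groups did not overlap for any of the 10 genes, as for 81.7% of all genes, while in TPM those of GNPDA1 did.

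**Figure D1:**
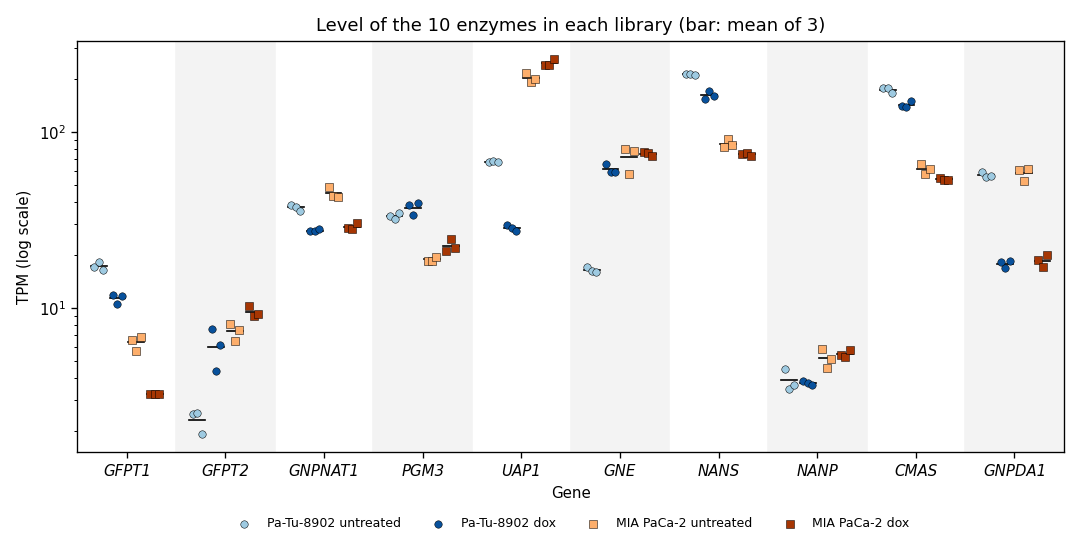
Each point is the TPM of a gene in 1 library on a log axis, with circles for Pa-Tu-8902, squares for MIA PaCa-2, light colours for untreated and dark colours for dox-treated libraries, and a black bar at the mean of 3. GNE moved from 16.13 to 17.12 TPM up to 59.06 to 65.43 TPM in Pa-Tu-8902, and GNPDA1 was at or below 20 TPM in the dox-treated libraries of both lines.

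With dox, 4 of the 9 genes other than GNE were called in Pa-Tu-8902, beside 16.3% of the 14949 genes tested, and 2 of the 9 other than GNPDA1 in MIA PaCa-2, beside 12% of 14589. In Pa-Tu-8902, GFPT2 rose, a direction called for 9.22% of all genes, and GNPDA1, UAP1 and GFPT1 fell, a direction called for 7.12%. In MIA PaCa-2, GFPT1 and GNPNAT1 fell, a direction called for 7.64% of all genes, and 0 rose, beside 4.36%. Since each contrast helped to choose the genes, nothing is read from these shares. The median log2 fold change of the 10 genes was -0.42 for Pa-Tu-8902 and -0.21 for MIA PaCa-2, beside 0.0014 and -0.0089 over all genes tested. In normalized counts the groups did not overlap for 9 of the 10 genes in the first line and for 8 in the second, beside 58.5% and 52.9% of all genes. The medians and these counts include GNE and GNPDA1, whose changes chose the set, so nothing is read from them either. A bulk library does not separate a change in every cell from a change in the makeup of the culture.

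**Figure D2:**
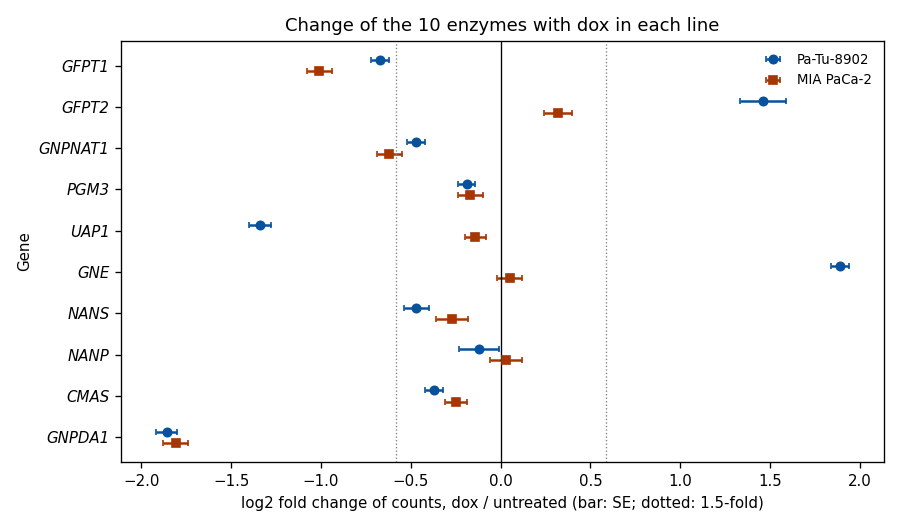
Points are the log2 fold changes of counts between dox-treated and untreated libraries from edgeR, with bars for the SE, circles for Pa-Tu-8902 and squares for MIA PaCa-2. Dotted lines mark a 1.5-fold change. GNPDA1 lies near -1.8 in both lines, while GNE, GFPT2 and UAP1 lie apart between the lines.

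GFPT1 and GFPT2 catalyse the first and rate-limiting step, the transfer of the glutamine amino group to fructose phosphate. GFPT1 (chr2:69319780-69387250) fell in both lines, while GFPT2 (chr5:180300698-180353336) rose in Pa-Tu-8902. GFPT1 was at 17.11, 18.29 and 16.38 TPM in the untreated Pa-Tu-8902 libraries and at 11.9, 10.59 and 11.72 TPM with dox. In MIA PaCa-2 it was at 6.61, 5.7 and 6.86 TPM without dox and at 3.25, 3.26 and 3.27 TPM with dox. Every dox-treated library was thus below every untreated library of its line. Normalized counts of GFPT1 went from 3706 ± 62.1 to 2338 ± 78.8 in Pa-Tu-8902 (SD, n = 3), and edgeR gave a log2 fold change of -0.67 (SE 0.05, adjusted p = 1.36e-06). In MIA PaCa-2 they went from 1302 ± 28.2 to 645.8 ± 16.4 (SD, n = 3), with a log2 fold change of -1.01 (SE 0.07, edgeR adjusted p = 6.92e-07). The falls differed by 0.35 on the log2 scale (SE 0.08, adjusted p = 0.00274), less than the fold required for a call. On log2(TPM + 1) with limma, the fall in Pa-Tu-8902 was -0.56 and short of 1.5-fold.

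GFPT2 stood at 2.52, 2.53 and 1.94 TPM in untreated and at 7.64, 4.37 and 6.16 TPM in dox-treated Pa-Tu-8902. In MIA PaCa-2 it stood at 8.18, 6.54 and 7.5 TPM without dox and at 10.28, 9.03 and 9.32 TPM with dox. The groups did not overlap in either line. In gene TPM, the dox-treated Pa-Tu-8902 range of 4.37 to 7.64 reached into the range of 6.54 to 8.18 of untreated MIA PaCa-2. Normalized counts went from 93.04 ± 11.3 to 257.7 ± 17.9 in Pa-Tu-8902 (SD, n = 3), a log2 fold change of 1.46 (SE 0.13, edgeR adjusted p = 5.33e-06). In MIA PaCa-2 the log2 fold change was 0.32 (SE 0.08, edgeR adjusted p = 0.00595), short of 1.5-fold. The change in Pa-Tu-8902 exceeded that in MIA PaCa-2 by 1.14 (SE 0.14, edgeR adjusted p = 1.13e-05), and the call of this difference was lost with limma on log2(TPM + 1), where it was 0.73 with an adjusted p of 0.0328. The transcript GFPT2-201 made up a median of 52.2% of the GFPT2 TPM in untreated Pa-Tu-8902 but 89.5% of its counts, the rest being mostly GFPT2-206, which is annotated as a processed transcript. GFPT2-201 alone was at 0.99 to 1.32 TPM without dox and 3.18 to 3.52 TPM with dox in that line. In untreated MIA PaCa-2, GFPT2-201 was at 6.35 to 7.85 TPM, above all of these. Of the summed TPM of both genes, GFPT2 held 10.6% to 12.8% in untreated and 29.2% to 39.1% in dox-treated Pa-Tu-8902. These shares include GFPT2-206, which was at 1.19 to 3.75 TPM on 14.29 to 33.6 counts in dox-treated Pa-Tu-8902. In MIA PaCa-2 its share was 52.2% to 55.3% without and 73.5% to 76% with dox, so that the share was higher in every dox-treated library than in any untreated library of the same line.

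In the middle of the pathway, GNPNAT1 fell in MIA PaCa-2 and PGM3 was called in neither line. GNPNAT1 (chr14:52775193-52791668) puts the acetyl group of acetyl-CoA on glucosamine phosphate. It was at 38.62, 37.65 and 35.81 TPM in untreated and at 27.33, 27.33 and 28.1 TPM in dox-treated Pa-Tu-8902. In MIA PaCa-2 it was at 48.8, 43.47 and 42.62 TPM without dox and at 28.59, 28.11 and 30.4 TPM with dox. All dox-treated libraries were below the untreated ones. The log2 fold change was -0.62 in MIA PaCa-2 (SE 0.07, edgeR adjusted p = 2.89e-05), which was called, and -0.47 in Pa-Tu-8902 (SE 0.05, edgeR adjusted p = 1.19e-05), which was short of 1.5-fold. The changes of GNPNAT1 in the lines differed by 0.15 (SE 0.08, edgeR adjusted p = 0.19), with an interval of 1.96 SE from -0.01 to 0.32. PGM3 (chr6:83147324-83193936) moves the phosphate of N-acetylglucosamine phosphate to the position that the next enzyme needs. PGM3 had 32.24 to 34.56 TPM in untreated and 33.78 to 39.3 TPM in dox-treated Pa-Tu-8902, and 18.48 to 19.64 and 21.03 to 24.62 TPM in MIA PaCa-2. On counts its log2 fold change was -0.19 (SE 0.05, edgeR adjusted p = 0.00752) in Pa-Tu-8902 and -0.17 (SE 0.07, edgeR adjusted p = 0.0728) in MIA PaCa-2. Once effective transcript lengths from RSEM entered as offsets, the values were 0.08 and 0.18. The direction for PGM3 therefore depended on the unit, with fewer counts but a higher TPM in dox-treated cells. The transcript PGM3-212 held a median of 41.8% of the PGM3 counts in untreated and 26.1% in dox-treated Pa-Tu-8902, and 61.9% and 42.7% in MIA PaCa-2.

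UAP1 (chr1:162561722-162601240) makes UDP-N-acetylglucosamine in the last step of the hexosamine pathway. It fell in Pa-Tu-8902 from 67.17, 68.2 and 67.82 TPM to 29.77, 28.63 and 27.4 TPM. Normalized counts were 3538 ± 160 without and 1396 ± 70.9 with dox (SD, n = 3), a log2 fold change of -1.34 (SE 0.06, edgeR adjusted p = 3.96e-08), or 2.53-fold lower. No dox-treated library came near an untreated one. In MIA PaCa-2 the counts changed by -0.14 (SE 0.06, edgeR adjusted p = 0.077), from 9732 ± 498 to 8810 ± 117 normalized counts (SD, n = 3). The response of UAP1 was lower in Pa-Tu-8902 than in MIA PaCa-2 by -1.20 (SE 0.08, edgeR adjusted p = 2.18e-08).

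In TPM, UAP1 in MIA PaCa-2 went the other way, from 215.17, 191.22 and 200.97 to 241.26, 240.65 and 258.82. The transcript UAP1-206 accounted for this rise. Its 2 exons are 56 and 72 bases long, shorter together than the 150-base reads. It was given 2 counts in each dox-treated MIA PaCa-2 library and 0 counts in every other library, and yet its TPM was 46.06 to 64.35. Without UAP1-206 the level of UAP1 was 191.99, 194.59 and 194.47 TPM in the dox-treated libraries, against the same 191.22 to 215.17 TPM in the untreated ones, and the log2 ratio of the means went from 0.29 to -0.06. UAP1-204, the transcript with the most counts in MIA PaCa-2, was at 135.92 to 159.12 TPM without and 103.67 to 111.87 TPM with dox.

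**Figure D3:**
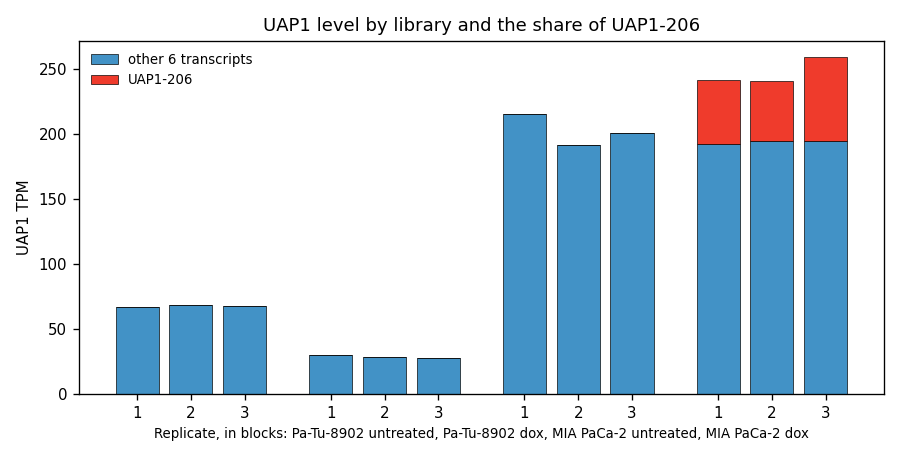
Bars are the TPM of UAP1 in each of the 12 libraries, in blocks of 3 by group, with the part assigned to UAP1-206 in red and the other 6 transcripts in blue. Red appears only in the 3 dox-treated MIA PaCa-2 libraries, where it is 46.06 to 64.35 TPM, and the blue part there is 191.99 to 194.59 TPM.

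GNE, the epimerase and kinase that opens the sialic acid branch and sets its rate, was the member with the largest rise. In Pa-Tu-8902 it went from 17.12, 16.29 and 16.13 TPM to 65.43, 59.06 and 59.49 TPM. The log2 fold change was 1.89 (SE 0.05), or 3.71-fold, from 1799 ± 83.7 to 6678 ± 233 normalized counts (SD, n = 3). This is the change for which the set was chosen. In MIA PaCa-2, GNE was at 80.55, 58.07 and 78.11 TPM without dox and at 77.33, 76.02 and 73.18 TPM with dox. The MIA PaCa-2 groups overlapped, and the low value of 58.07 TPM belonged to the second untreated library, the one that stood apart. Its log2 fold change there was 0.05 (SE 0.07, edgeR adjusted p = 0.569), with an interval of 1.96 SE from -0.08 to 0.19, and -0.02 without that library. Dox-treated Pa-Tu-8902 libraries thus came up to 59.06 to 65.43 TPM, inside the range of 58.07 to 80.55 TPM of untreated MIA PaCa-2. Without the second untreated library that range is 78.11 to 80.55 TPM, above them.

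Most of the rise of GNE was in transcripts that begin at the upstream start, whose window is printed above. These 3 transcripts (GNE-202, GNE-206 and GNE-208) summed to 10.65, 10.57 and 10.59 TPM in untreated and to 51.48, 43.06 and 45.36 TPM in dox-treated Pa-Tu-8902. The 3 transcripts from the downstream start (GNE-203, GNE-204 and GNE-207) summed to 3.1, 3.07 and 2.16 TPM without dox and to 3.31, 2.57 and 3.55 TPM with dox. The upstream groups were far apart, and the downstream groups overlapped. In shares, the downstream transcripts made up 13.4% to 18.8% of the GNE TPM without and 4.35% to 5.97% with dox. The other 2 transcripts, GNE-201 and GNE-205, were not in the annotation used to place starts, so their start is not given, and they also went from 2.66 to 3.39 TPM up to 10.57 to 13.42 TPM. In MIA PaCa-2 the upstream transcripts were at 53.42, 36.32 and 55.27 TPM without and 54.42, 52.27 and 52.68 TPM with dox, and the downstream ones at 5.66 to 7.6 and 4.24 to 8.55 TPM. Transcript levels are RSEM's estimates from reads that the transcripts share, and they were described without a test.

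**Figure D4:**
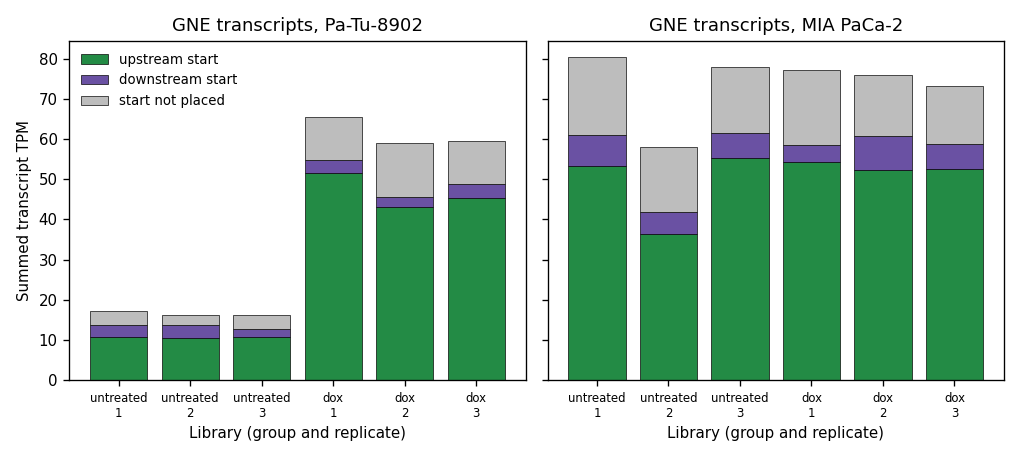
Stacked bars give the TPM of GNE transcripts in each library, by the start they use, with untreated and dox-treated libraries of Pa-Tu-8902 on the left and of MIA PaCa-2 on the right. The upstream part goes from about 10.6 TPM to 43.06 to 51.48 TPM with dox in Pa-Tu-8902, and the second untreated MIA PaCa-2 library has the lowest bar of its line.

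None of the 3 enzymes after GNE was called with dox in either line. NANS (chr9:98056732-98083077) condenses the GNE product with phosphoenolpyruvate, NANP (chr20:25612935-25624014) removes the phosphate, and CMAS (chr12:22046218-22065674) activates sialic acid with CMP. NANS was at 214.48, 212.32 and 210.8 TPM in untreated and at 153.27, 171.99 and 159.96 TPM in dox-treated Pa-Tu-8902. CMAS was at 166.93 to 177.53 TPM and at 138.26 to 149.16 TPM in the same groups. Both were lower in every dox-treated library, by less than 1.5-fold. The log2 fold change in Pa-Tu-8902 was -0.47 for NANS (SE 0.07, edgeR adjusted p = 1.65e-04) and -0.37 for CMAS (SE 0.05, edgeR adjusted p = 6.12e-05). In MIA PaCa-2 it was -0.27 for NANS (SE 0.09, edgeR adjusted p = 0.0324) and -0.25 for CMAS (SE 0.06, edgeR adjusted p = 0.00753). With 1 library left out, the value of NANS in MIA PaCa-2 ranged from -0.34 to -0.15. NANP was the lowest of the branch, at 3.47 to 4.54 TPM without and 3.65 to 3.85 TPM with dox in Pa-Tu-8902, and at 4.59 to 5.86 and 5.29 to 5.75 TPM in MIA PaCa-2. The NANP groups overlapped in both lines. Its log2 fold change was -0.12 (SE 0.11, edgeR adjusted p = 0.371) in Pa-Tu-8902 and 0.03 (SE 0.09, edgeR adjusted p = 0.776) in MIA PaCa-2, with intervals of 1.96 SE from -0.34 to 0.09 and from -0.14 to 0.21. For NANS, NANP and CMAS the change was not called as different between the lines, with adjusted p of 0.277, 0.468 and 0.265 in edgeR.

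GNPDA1 runs against the first step, since it takes the amino group off glucosamine phosphate and returns fructose phosphate and ammonia. It was lower with dox in both lines. In MIA PaCa-2 it went from 61.01, 53.07 and 61.39 TPM to 18.88, 17.06 and 20 TPM, with a log2 fold change of -1.81 (SE 0.07) that served to choose the set. In Pa-Tu-8902 it was at 59.09, 55.27 and 56.5 TPM without and 18.23, 16.84 and 18.46 TPM with dox. The levels of the lines lay in the same range in both conditions, and no dox-treated library came near an untreated one. Normalized counts in Pa-Tu-8902 were 2869 ± 162 and 791.7 ± 37.5 (SD, n = 3), a log2 fold change of -1.86 (SE 0.06, edgeR adjusted p = 9.00e-09), or 3.62-fold lower. The changes of GNPDA1 in the lines differed by -0.04 (SE 0.09), with an interval of 1.96 SE from -0.23 to 0.14. The window before its start, printed above, holds an E-box and an AP-1 site.

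The genes with patterns most like GNE and GNPDA1 were sought among the 13109 genes tested in both lines by Pearson's r of log2 CPM, counts scaled to library size, over the 12 libraries, which fall into 4 groups, so that r mostly reflects the 4 group levels. Nearest to GNE were LGALS8 (r = 0.996), YPEL2 (0.985) and TEAD2 (0.985). LGALS8, a galectin, had median levels of 14.8 and 25.9 TPM in untreated and dox-treated Pa-Tu-8902 and of 32 and 35.9 TPM in MIA PaCa-2. Nearest to GNPDA1 were SNX30 (r = 0.995), REEP5 (0.991) and RUSC1 (0.99). SNX30, a sorting nexin, had medians of 4.73 and 1.99 TPM in Pa-Tu-8902 and 5.12 and 1.96 TPM in MIA PaCa-2.

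Genes that use the products of the pathway were then counted by list, and in these counts a gene rose or fell only where it was called. The lists have no test of their own, and more genes rose in Pa-Tu-8902 (9.22% of all tested) than in MIA PaCa-2 (4.36%) to begin with. Of 20 sialyltransferases, 12 passed the filter in the first line and 11 in the second. In Pa-Tu-8902, 4 of the 12 rose (9.22% of all genes) and 0 fell (7.12%), with a median log2 fold change of 0.46. In MIA PaCa-2, 0 of the 11 rose (4.36%) and 2 fell (7.64%), with a median of -0.30. The 2 medians do not cover the same genes. ST6GALNAC1 and ST6GALNAC3 were tested only in Pa-Tu-8902 and ST8SIA5 only in MIA PaCa-2, and none of these exceeded 1.42 TPM in any library. Nothing is therefore read from the gap between the medians. Lists below with unlike numbers tested in the lines share this limit. ST3GAL5, which makes the ganglioside GM3, went from 2.25 to 2.69 TPM up to 12.8 to 13.4 TPM in Pa-Tu-8902, a log2 fold change of 2.69 (SE 0.10, edgeR adjusted p = 1.93e-08). In MIA PaCa-2, ST3GAL5 changed by -0.14 (SE 0.19, edgeR adjusted p = 0.564). ST6GAL1, which caps N-glycans, rose by 2.01 in Pa-Tu-8902 (SE 0.22, edgeR adjusted p = 3.15e-05) and fell by 1.05 on the log2 scale in MIA PaCa-2 (SE 0.12, edgeR adjusted p = 4.23e-05). Its level in Pa-Tu-8902 was low, at 0.2 to 0.41 TPM without and 0.74 to 1.38 TPM with dox, and in MIA PaCa-2 it was at 2.94 to 3.8 and 1.48 to 2.2 TPM. The groups of ST6GAL1 did not overlap in either line, and they moved in opposite directions. ST3GAL2 (0.98, SE 0.06) and ST3GAL4 (0.61, SE 0.07) also rose in Pa-Tu-8902, and ST6GALNAC2 fell by 1.58 (SE 0.22) in MIA PaCa-2. Without the first untreated Pa-Tu-8902 library, the change of ST3GAL4 was 0.54 and no longer 1.5-fold. The falls of ST6GAL1 and ST6GALNAC2 in MIA PaCa-2 were not called with limma on log2(TPM + 1), with adjusted p of 0.0176 and 0.0149.

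Of 7 genes for sialidases and sialate release, 3 of 5 tested rose in Pa-Tu-8902, beside 9.22% of all genes, and 0 fell, beside 7.12%, with a median log2 fold change of 0.59. They were SIAE, a sialate esterase, at 1.33 (SE 0.16), NEU1, the lysosomal sialidase, at 0.91 (SE 0.07), and CTSA, which protects NEU1 in the lysosome, at 0.59 (SE 0.06). NEU1 went from 22.8 to 25.9 TPM up to 45.7 to 50.5 TPM. In MIA PaCa-2, NEU1 stayed within 9.66 to 12 TPM, with a log2 fold change of -0.11 (SE 0.10, edgeR adjusted p = 0.385). There, of 6 tested, NEU4 rose by 1.46 (SE 0.35), beside 4.36% of all genes, and the median was -0.14. GLB1, the lysosomal galactosidase that sits in a complex with NEU1 and CTSA, fell by 0.91 on the log2 scale (SE 0.07), beside 7.64% of all genes. NEU4 was low, at 0.24 to 0.26 TPM without and 0.4 to 0.64 TPM with dox. Its mean was 9.352 normalized counts without dox, below the 10 counts of the filter, and 26.17 with dox, so no weight is put on its call. DESeq2 (adjusted p = 0.0106) did not call NEU4, nor did edgeR with effective lengths as offsets (1.01, adjusted p = 0.059). The call of NEU4 was also lost without any of 5 of the 6 MIA PaCa-2 libraries (all but the first untreated one), with log2 fold changes of 1.3 to 1.59. CTSA in Pa-Tu-8902 was short of 1.5-fold without the second untreated library (0.56) or the third dox-treated library (0.57).

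Among 7 transporters, all tested in both lines, SLC17A5, which exports sialic acid from lysosomes, rose in Pa-Tu-8902 by 0.99 (SE 0.06, edgeR adjusted p = 3.88e-07), from 11.4 to 12.2 TPM up to 22.7 to 26.3 TPM. SLC35D1, a carrier of UDP-sugars into the endoplasmic reticulum, rose in both lines, by 0.84 (SE 0.07) in Pa-Tu-8902 and by 0.63 (SE 0.09) in MIA PaCa-2. No transporter was called lower in either line, beside 7.12% and 7.64% of all genes. In the first line 2 of 7 rose and in the second 1 of 7, beside 9.22% and 4.36%, and the medians were 0.25 and 0.09. In MIA PaCa-2 the change of SLC35D1 was 0.53 without the second untreated library, short of 1.5-fold, and with limma on log2(TPM + 1) its adjusted p was 0.0152. Of 10 genes for hexosamine turnover and salvage, 9 were tested, with medians of 0.14 (Pa-Tu-8902) and -0.11 (MIA PaCa-2). UAP1L1, a homologue of UAP1, fell by 1.44 on the log2 scale in Pa-Tu-8902 (SE 0.22, edgeR adjusted p = 3.27e-04), 1 of 9 beside 7.12% of all genes, and 0 rose, beside 9.22%. With limma on log2(TPM + 1) and on log2(TPM + 0.1), 2 genes of this list were called in Pa-Tu-8902. NAGK, not called on counts there, went from 48.1 to 54.8 TPM up to 77.8 to 79.2 TPM. NPL, the lyase that breaks down sialic acid, rose in MIA PaCa-2 by 1.05 (SE 0.15, edgeR adjusted p = 2.46e-04), 1 of 9 beside 4.36%, and 0 fell, beside 7.64%.

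Of 14 genes that transfer N-acetylglucosamine to N-glycans and hyaluronan, 10 and 11 were tested, with medians of -0.15 and 0.15. In Pa-Tu-8902, 1 of 10 rose (9.22% of all genes) and 0 fell (7.12%). In MIA PaCa-2, 2 of 11 rose (4.36%) and 0 fell (7.64%). MGAT4A, a branching enzyme of N-glycans, rose by 0.93 in Pa-Tu-8902 (SE 0.09) and by 0.68 (SE 0.13) in MIA PaCa-2. HAS3, a hyaluronan synthase, rose in MIA PaCa-2 by 0.77 (SE 0.15), and changed by -0.43 (SE 0.08) in Pa-Tu-8902, short of 1.5-fold. With effective lengths as offsets, MGAT4A was called in neither line (0.29 and 0.56), and HAS3 was not called in MIA PaCa-2 without the third dox-treated library (0.74, edgeR adjusted p = 0.0112). Of 18 starters of mucin-type O-glycans, 9 were tested in Pa-Tu-8902, where GALNT2, GALNT12 and GALNT7 rose, beside 9.22% of all genes, and 0 fell, beside 7.12%, with a median of 0.20. GALNT2, the most abundant of these, went from 44.5 to 46.8 TPM up to 97.7 to 104 TPM, a log2 fold change of 1.06 (SE 0.05, edgeR adjusted p = 7.82e-08). In MIA PaCa-2, 10 were tested, with a median of -0.09. GALNT1 fell by 0.76 on the log2 scale (SE 0.06), beside 7.64% of all genes, and 0 rose, beside 4.36%.

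**Figure D5:**
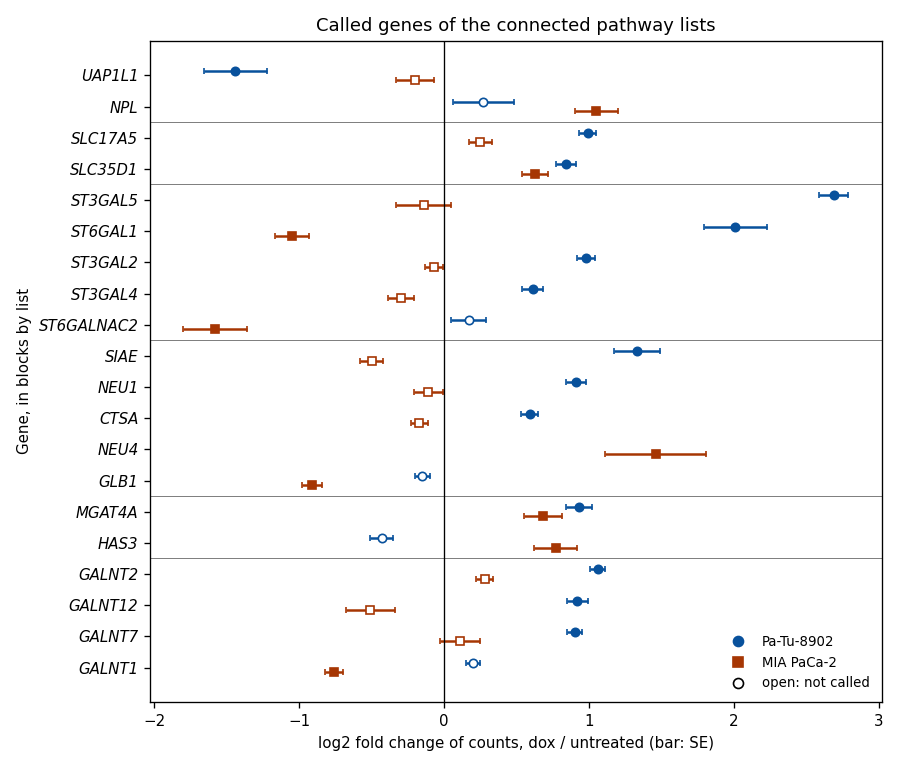
Points are the log2 fold changes with dox of the called genes of 6 lists, with bars for the SE, circles for Pa-Tu-8902 and squares for MIA PaCa-2, filled where called and open where not. ST3GAL5 and ST6GAL1 lie at 2.69 and 2.01 in Pa-Tu-8902 and at -0.14 and -1.05 in MIA PaCa-2, and NEU4 has no point in Pa-Tu-8902, where it was not tested.

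The change with dox itself was compared between the lines in a fit of all 12 libraries. Of the 8 members other than GNE and GNPDA1, GFPT2 and UAP1 were called, beside 10.4% of the 16544 genes tested. GFPT2 and UAP1 are given above with their tests. For GNE the difference was 1.84 (SE 0.09), described without a test since the rise in Pa-Tu-8902 chose the set. For GFPT1, GNPNAT1, PGM3, NANS, NANP and CMAS the difference between lines lay between -0.19 and 0.35.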

How the data were processed

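Poly(A) RNA of 12 libraries was sequenced by the authors as strand-specific, paired-end reads of 150 bases. Per the labels' processing notes, reads were trimmed with Trimmomatic 0.39, aligned with STAR 2.5.2a and quantified with RSEM 1.3.1 on GRCh38 with GENCODE release 29. The authors deposited expected counts (5.34% of values not whole), FPKM and TPM of each gene and transcript, with replicates separate and no filter. The effective gene lengths in the deposited tables served 1 alternative. Columns of comparisons were not used here. The line of each library was taken from its title. A copy of counts that the study released elsewhere pairs names of Pa-Tu-8902 libraries with counts of libraries titled Mia, and the titles were followed, since vimentin and E-cadherin were at the levels known for the lines they name.

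The rounded counts entered edgeR 4.0.16 (R 4.3.3) with TMM normalization and the quasi-likelihood test. Genes needed 10 or more counts in 3 or more of the fitted libraries. Each line was fitted alone, the untreated lines together, and the difference of the responses in all 12 libraries. A call needed a Benjamini-Hochberg adjusted p below 0.01 over all genes tested and a fold of at least 1.5. The SE was derived from F, as the size of the log2 fold change over its root. Levels are TPM, which depend on the transcripts that RSEM picks, while tests are on counts. Alternatives were DESeq2 1.42.0 and its size factors, other filters and thresholds, effective lengths as offsets, limma 3.58.1 on log2(TPM + 1) and log2(TPM + 0.1), FPKM levels, a replicate block, 1 fit of all libraries and each library left out. The level of UAP1 without UAP1-206 was added after the tables were seen. Scripts were tested on simulated data.

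The members, the 6 lists and the marker lists were chosen with earlier results of these data known, and the 4 motifs after the tables were seen. Named from the lists are called genes, up to 5 per list and line by size of the change, and the 3 nearest genes to GNE and GNPDA1. Libraries sharing a replicate number were not paired: correlations of their residuals were 0.147, -0.077 and 0.216 in Pa-Tu-8902 and 0.017, -0.093 and -0.084 in MIA PaCa-2. Replicates differed by more than sampling noise, and no library was a duplicate. A count of 0 allows up to 3 counts, counting error only.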

Additional observations from a re-analysis of the deposited data

Results flagged for a closer look

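Several genes were picked out because the change with dox differed between the lines by the test of the difference itself (edgeR, Pa-Tu-8902 minus MIA PaCa-2, log2 scale, 3 libraries in each group). Among the members these were GFPT2, at 1.14, and UAP1, at -1.20. In both, every dox-treated Pa-Tu-8902 library lay outside the untreated range, and the change in MIA PaCa-2 was short of 1.5-fold.

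Among sialyltransferases the differences were 3.06 for ST6GAL1, 2.84 for ST3GAL5, 1.75 for ST6GALNAC2, 1.05 for ST3GAL2 and 0.90 for ST3GAL4. Among sialidases and genes of sialate release they were 1.82 for SIAE, 1.02 for NEU1, 0.76 for CTSA and 0.75 for GLB1. Among O-glycan starters they were 1.43 for GALNT12, 0.97 for GALNT1, 0.80 for GALNT7 and 0.79 for GALNT2. The others were SLC17A5, at 0.73, UAP1L1, at -1.25, and HAS3, at -1.19. ST6GAL1 was the gene of these lists called in opposite directions in the lines. All of them were chosen for a call in at least 1 line, which favours such differences.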

How the results depend on the processing

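With no fold limit, calls were 5692 for Pa-Tu-8902, 3973 for MIA PaCa-2 and 2799 for the difference of the responses, and 8 and 4 members were called with dox and 8 between the untreated lines, against 2443, 1751, 1724, 4, 2 and 5 (GNE and GNPDA1 left out where they chose the set). With limma on log2(TPM + 1) without a filter, calls were 1392 and 436, with 2 members and 1 member, for Pa-Tu-8902 and MIA PaCa-2. In the former, GFPT1, GFPT2, UAP1L1, ST6GAL1, SIAE and MGAT4A lost their calls, as did GFPT1, NPL, SLC35D1, ST6GAL1, ST6GALNAC2, NEU4, GLB1, MGAT4A, HAS3 and GALNT1 in the other line. On log2(TPM + 0.1), SIAE and MGAT4A lost theirs in Pa-Tu-8902, and SLC35D1, ST6GAL1, ST6GALNAC2, MGAT4A and HAS3 in MIA PaCa-2. Of the list genes, MGAT4A lost its call in both lines on log2(TPM + 1) with the filter. The same fit lost SLC35D1, ST6GAL1 and ST6GALNAC2 in MIA PaCa-2. With the filter, calls were 974 in MIA PaCa-2, and on log2(TPM + 0.1) they were 989 in that line and 1119 for the difference. For the difference of the responses, 1 member, UAP1, was called with each limma fit. Other settings kept these counts within 1.5 times. Leaving out 1 library gave 2114 to 2339, 1479 to 1835, 7649 to 7943 (untreated lines) and 1549 to 1726 calls, and 4, 2, 5 to 6 and 2 members. A replicate block gave 2380, 1735, 8891 and 1611 calls and lost NEU4 in MIA PaCa-2 (edgeR adjusted p = 0.011), among the genes named, and no other call of them.

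The direction turned with effective lengths or TPM as follows. PGM3 was at 0.08 with effective lengths and 0.15 with each limma fit (Pa-Tu-8902), and at 0.18, 0.24, 0.25 and 0.24 (MIA PaCa-2). UAP1 of MIA PaCa-2 was at 0.22 and 0.29, and -0.06 in TPM without UAP1-206. ST3GAL2 of that line was at 0.08, 0.14, 0.15 and 0.14, and ST6GALNAC2 in Pa-Tu-8902 at -0.09 and -0.03. The difference of GOT1 between lines was -0.18 on log2(TPM + 1). Apart from UAP1, the cause was not tested. Values near 0 turned with 1 library left out: GNE in MIA PaCa-2 ranged from -0.02 to 0.1 and NANP there from -0.03 to 0.09 (-0.02 in another case), GNPDA1 between untreated lines from -0.15 to 0.01, and the differences of response from -0.04 to 0.03 for PGM3 and from -0.07 to 0.02 for GNPDA1. Depth limits NEU4 in MIA PaCa-2 and ST6GAL1 in Pa-Tu-8902, whose untreated means were 9.35 and 22.8 normalized counts. The same holds for ST6GALNAC2 in MIA PaCa-2, whose mean with dox was 24.8 normalized counts.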
